A study of Mus musculus with 2 samples.

Results

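Intermediate progenitors of the dentate gyrus that carried Eomes RNA and no sign of division by 2 mitotic genes were compared between a control library and a Setdb1_cKO library. A cell was taken when it held at least 2 unique molecular identifiers (UMIs, counted RNA molecules) of Eomes, no UMI of Mki67 or Top2a, at most 1 UMI of Reln and no UMI of Olig2. The last conditions remove dividing cells, Cajal-Retzius cells and oligodendrocyte lineage cells. These conditions held for 1330 of 21370 cells, after barcodes under 1000 UMIs or under 500 genes, or with over 10% mitochondrial UMIs, had been left out. The control library gave 878 of 11414 cells (7.69%, exact 95% interval 7.21 to 8.20%) and the Setdb1_cKO library gave 452 of 9956 cells (4.54%, 4.14 to 4.97%).

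Both libraries came from mouse dentate gyri at postnatal day 5 and were made with droplet 3' single-cell chemistry. The control is labelled wild type, and Setdb1_cKO stands for a conditional knockout of Setdb1, the gene of a methyltransferase that places the repressive histone mark H3K9 trimethylation. The sources used here do not name the driver of the deletion, the deleted exons, the strain or the number of animals. With 1 library per genotype there are no replicates and no p-values: the differences are between these libraries, and every interval covers counting error only.

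In the developing dentate gyrus, radial glia divide to give intermediate progenitors, which switch on the T-box factor Eomes (also called Tbr2), pass through a short neurogenic programme and become neuroblasts that mature into granule neurons. The step is driven by proneural basic helix-loop-helix factors that act in sequence, with Neurog2 early and Neurod1, Neurod4 and Nhlh1 later. Setdb1 is known for keeping germline genes, retroelements and the clustered protocadherin genes silent in cells that should not use them.

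The conditions beyond Eomes removed mainly dividing cells. Of the cells with at least 2 Eomes UMIs, 1609 in control and 781 in Setdb1_cKO, the condition on Mki67 and Top2a failed in 704 and 312, the one on Reln in 21 and 16 and the one on Olig2 in 40 and 23. The progenitors held 6082627 UMIs in control and 3685195 in Setdb1_cKO, with medians of 6616.5 and 7367 UMIs and 2642.5 and 2755.5 genes per cell. The median mitochondrial share was 4.14% and 4.73%. Of all barcodes 68 occurred in both libraries, and none of these was a progenitor. The libraries also differed in sex-linked RNA: Xist had 1 UMI in the control progenitors and 4295 in the Setdb1_cKO progenitors, while the Y-linked Ddx3y had 293 and 0. Sex and genotype therefore cannot be told apart in any difference below.

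Eomes itself chose the cells and is described without a comparison. Its mean was 4.71 UMIs per progenitor in control and 3.78 in Setdb1_cKO, its median 4 and 3 and its highest value 18 and 12. At the threshold, 237 control and 171 Setdb1_cKO cells held exactly 2 Eomes UMIs, and 581 and 328 cells just outside it held 1. In these neighbours Tac2 was 379 CPM (the gene's UMIs relative to all UMIs of the cells summed) in control with 1 Eomes UMI and 598 CPM with 2. In Setdb1_cKO it was 254 and 497 CPM, so in both libraries the level was higher inside the threshold.

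The marker genes Tac2, Neurod4 and Nhlh1 were present in both libraries, and the label was not contradicted. Tac2, which encodes the precursor of neurokinin B, had 4853 UMIs in 499 of 878 control cells and 1910 in 199 of 452 Setdb1_cKO cells. Cells without any Tac2 UMI made up 43.2% and 56.0%, so a large part of the gated cells lacked this marker. Neurod4 was found in 281 control and 187 Setdb1_cKO cells and Nhlh1 in 367 and 278, so many cells lacked these markers too. The summed levels of the cell cycle lists were 1994 CPM (S phase) and 1790 CPM (G2/M) in the control progenitors, against 6295 and 14136 CPM in control Eomes cells with a Mki67 or Top2a UMI. In Calb2 neuroblast-like control cells, gated on Calb2 and Dcx without Eomes, they were 970 and 1008 CPM. The progenitors lay between those groups, and 20.4% of control and 18.6% of Setdb1_cKO progenitors still took over 0.5% of their UMIs from the cycle lists. Non-cycling thus describes the gate and not the absence of every cycle transcript.

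RNA of other cell types was measured beside these values. Haemoglobin genes had 1939 UMIs in the control progenitors, of which 94.7% lay in 10 cells, and 41 in Setdb1_cKO. Summed microglia markers stood at 33.5 and 11.1 CPM, endothelial and mural markers at 56.4 and 27.4 CPM, fibroblast markers at 71.4 and 31.2 CPM and GABAergic markers at 6.90 and 26.6 CPM. At least 5 UMIs over the microglia, endothelial, fibroblast and erythroid markers were found in 17 control and 7 Setdb1_cKO cells. Their part in the results was not tested beyond leaving these cells out.

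Setdb1 RNA was lower in the Setdb1_cKO progenitors. The gene (chromosome 3, 95323525 to 95357202, minus strand of GRCm38, as are all gene positions here) had 248 UMIs, or 40.8 CPM, in control and 79 UMIs, or 21.4 CPM, in Setdb1_cKO, a ratio of 0.526 (0.403 to 0.680). After each cell was thinned to 2000 UMIs, a Setdb1 UMI was found in 7.65% of 876 control cells and 2.0% of 451 Setdb1_cKO cells (23.5% and 14.8% without thinning). In microglia-like cells, gated on C1qb, with medians of 5861 and 7206.5 UMIs and thinned alike, the shares were 7.58% and 8.96%, and the summed Setdb1 level was 48.8 and 42.4 CPM. The share was thus lower in Setdb1_cKO among the progenitors and close to equal among the microglia-like cells, and the difference between these groups of cells was not tested. RNA counted at the 3' end does not show which exons remain. Cers2 lies antisense over part of Setdb1, and the sources used here do not say whether the counting used strand, which holds for every antisense partner named below.

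The comparison of 11148 genes with at least 30 UMIs over both libraries gave more genes on the lower side than on the higher. At least 2-fold higher in Setdb1_cKO were 210 genes (1.88% of those measured), and at least 2-fold lower were 289 (2.59%). With a minimum of 100 UMIs the 2-fold numbers, given with the processing alternatives below, were nearer to each other. At 1.5-fold these numbers were 586 (5.26%) and 956 (8.58%). The median log2 ratio of all measured genes was -0.04, with a middle range from -0.27 to 0.16. The highest ratios belonged to germline genes and long noncoding RNAs that were almost absent in control. The 15 lowest were 3 Y-linked genes, 4 haemoglobin genes and 8 others, described below. The shares of 5.26% higher and 8.58% lower at 1.5-fold are the background for the counts over gene lists.

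**Figure D1:**
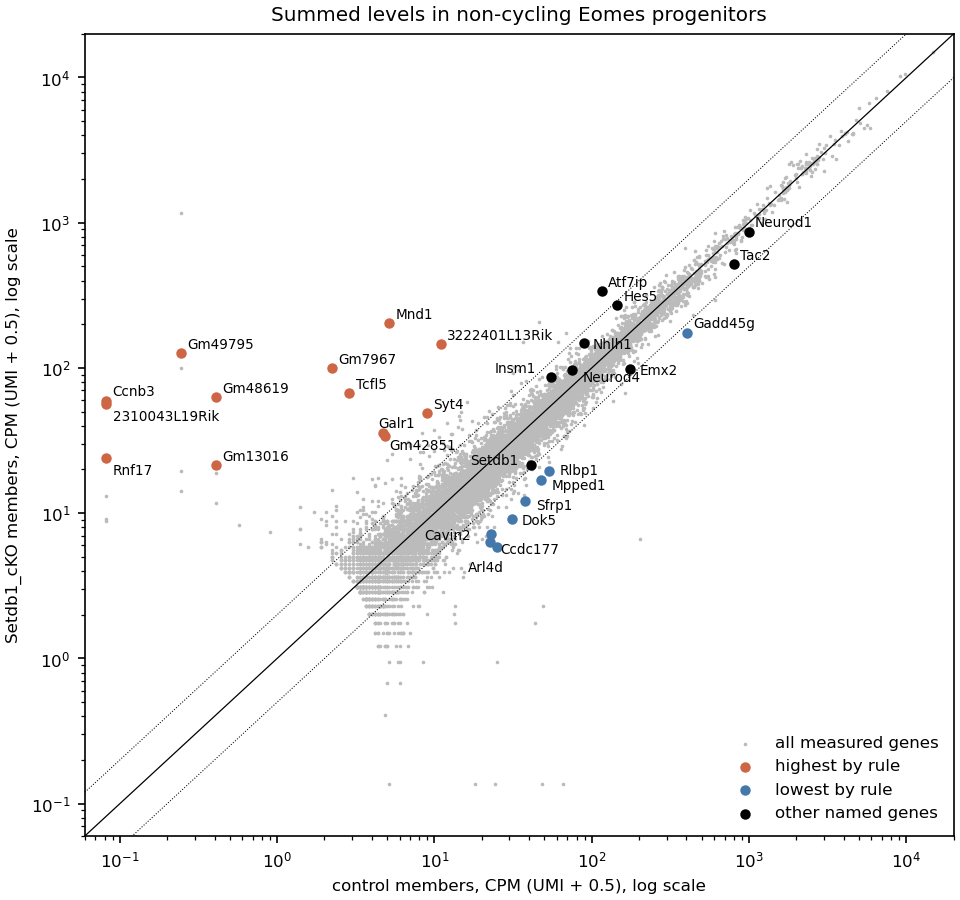
Summed level of each measured gene in the control progenitors (x axis) and the Setdb1_cKO progenitors (y axis), in CPM on log scales with 0.5 UMI added. The solid line marks equal levels and the dotted lines a 2-fold difference. Mnd1 and the noncoding RNAs lie far above the lines, with at most 10.9 CPM in control, whereas Gadd45g lies below at 404 against 175 CPM.

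Germline genes, whose products serve meiosis and germ cell development, were higher as a group in the Setdb1_cKO progenitors. The 57 listed genes summed to 157 CPM in control and 524 CPM in Setdb1_cKO, a ratio of 3.33 (3.08 to 3.60). Of the 13 members measured, 7 were at least 1.5-fold higher (5.26% of all measured genes were) and none at least 1.5-fold lower, with a median log2 ratio of 2.01. All of the 7 but Mnd1 had under 30 UMIs in control and reached that minimum only with the Setdb1_cKO UMIs, so their count adds no support. The list was drawn up with an earlier analysis of these libraries known and is no independent evidence of a direction. The 44 members under 30 UMIs summed to 45 UMIs in control and 97 in Setdb1_cKO (ratio 3.56, 2.47 to 5.19), and 20 of them had no UMI at all. The group sum leaned on Mnd1: without it the ratio was 2.10 (1.92 to 2.29).

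Mnd1, whose protein works with Psmc3ip in the strand exchange of meiotic recombination, had the most UMIs of the germline genes. The gene (chromosome 3, 84087933 to 84155786) had 31 UMIs in 30 control cells and 754 UMIs in 329 of 452 Setdb1_cKO cells. These were levels of 5.10 and 205 CPM, a ratio of 40.1 (28.0 to 59.5). The UMIs were spread over the cells: the 10 cells with most Mnd1 held 13.1% of those in Setdb1_cKO. After thinning, 1.03% of control and 29.7% of Setdb1_cKO progenitors had a Mnd1 UMI. In endothelial-like cells, gated on Cldn5 and with medians of 12252 and 7687.5 UMIs, the shares were 0% of 198 cells (exact interval up to 1.85%) and 9.43% of 106, and in microglia-like cells 1.89% and 4.30%. The share in the progenitors lay above both groups in Setdb1_cKO. Its partner gene Psmc3ip had 22.9 and 25.2 CPM, a ratio of 1.10 (0.84 to 1.45).

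Tcfl5, a basic helix-loop-helix factor known from the testis, had 17 UMIs in control and 246 in Setdb1_cKO, 2.79 and 66.8 CPM. The ratio was 23.9 (14.6 to 41.7). UMIs of Tcfl5 were found in 13 control and 186 Setdb1_cKO cells, Col9a3 lies antisense to the gene, and without the cells that took over 0.5% of UMIs from the cycle lists the ratio was 38.1. With cells thinned to 2000 UMIs before the gate it was 10.5. Rnf17, a Tudor-domain gene of germ granules, had no UMI in control and 88 in 71 Setdb1_cKO cells, which with 3 counts over the control progenitors is at least 48.4-fold higher. Ddx4, the germ cell RNA helicase also called Vasa, had 1 UMI in control and 71 in 48 Setdb1_cKO cells (ratio 117, 20.4 to 4693). The ratio of Ddx4 rests on 1 control UMI. With at least 3 Eomes UMIs per cell it was at least 28.5, a lower bound taken against 3 counts because control then had no Ddx4 UMI. The meiotic cohesin genes Rec8 and Stag3 had 4.27 and 1.64 CPM in control. In Setdb1_cKO they had 17.4 and 10.0 CPM, ratios of 4.06 (2.54 to 6.68) and 6.11 (2.98 to 13.8). For Stag3 the ratio was 3.16 without those cycle-rich cells.

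Other germline genes did not differ in the same manner. Syce2, of the synaptonemal complex, had 52.3 and 65.7 CPM (ratio 1.26, 1.06 to 1.49), and Tdrkh, of the piRNA pathway, had 46.2 and 40.7 CPM (0.881, 0.718 to 1.08). Both were already present in the control progenitors. Hspa2 (0.978, 0.492 to 1.88) and Brdt (0.825, 0.389 to 1.66) had intervals that included 1. The germline genes with ratios above 4 were thus those with little or no RNA in control. The seventh of the higher members, Tuba3a, a tubulin gene of the testis, had 0 and 32 UMIs.

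Promoters of the genes with the highest ratios and of the higher germline genes were taken from the RefSeq set for GRCm38.p6. Those of 9 of the 16 genes looked up were read. The other genes, among them Galr1 and Syt4, were not searched, whether or not the set held their promoters. Each promoter read runs from 250 bases before to 50 bases after the annotated start. They are shown for 4 germline genes because those genes were near silent in control and the promoters differ in their CG content and in motifs of germline gene promoters. The motifs searched on both strands were the E-box CACGTG, the E2F-type motif GGCGGGAA with its reverse complement TTCCCGCC, and the T-box motif AGGTGTGA, the kind of site bound by Eomes. Of 32851 promoters of this length, 7.15% held CACGTG, 2.19% GGCGGGAA and 1.28% AGGTGTGA. Capitals mark these motifs.
Ddx4: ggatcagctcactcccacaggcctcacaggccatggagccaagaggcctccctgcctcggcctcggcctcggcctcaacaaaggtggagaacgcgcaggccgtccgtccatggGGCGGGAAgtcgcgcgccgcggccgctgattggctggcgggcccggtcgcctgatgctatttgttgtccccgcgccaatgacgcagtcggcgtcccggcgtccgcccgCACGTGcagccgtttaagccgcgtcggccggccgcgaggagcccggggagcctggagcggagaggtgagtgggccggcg
Stag3: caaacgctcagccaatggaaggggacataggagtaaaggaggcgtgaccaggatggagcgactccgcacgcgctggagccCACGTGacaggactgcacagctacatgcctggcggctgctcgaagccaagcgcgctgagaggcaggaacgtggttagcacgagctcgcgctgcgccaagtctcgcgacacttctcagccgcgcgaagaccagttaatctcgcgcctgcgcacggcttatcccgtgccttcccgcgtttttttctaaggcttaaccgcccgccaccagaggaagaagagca
Mnd1: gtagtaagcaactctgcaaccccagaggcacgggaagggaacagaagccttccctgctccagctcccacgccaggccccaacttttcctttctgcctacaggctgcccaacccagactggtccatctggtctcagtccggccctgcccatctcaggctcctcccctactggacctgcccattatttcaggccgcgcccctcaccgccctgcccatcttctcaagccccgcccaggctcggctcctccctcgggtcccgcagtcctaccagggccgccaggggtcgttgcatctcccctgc
Tcfl5: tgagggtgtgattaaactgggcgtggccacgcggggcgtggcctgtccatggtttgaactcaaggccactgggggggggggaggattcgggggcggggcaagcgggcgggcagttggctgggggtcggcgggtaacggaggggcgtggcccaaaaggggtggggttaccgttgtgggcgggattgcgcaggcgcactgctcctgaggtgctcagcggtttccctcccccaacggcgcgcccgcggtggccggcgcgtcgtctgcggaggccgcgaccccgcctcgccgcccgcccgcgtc
The Ddx4 promoter (chr13:112652261-112652560, minus strand) held CACGTG and GGCGGGAA, and the Stag3 promoter (chr5:138280259-138280558, plus strand) held CACGTG. The promoters of Mnd1 (chr3:84155737-84156036, minus strand) and Tcfl5 (chr2:180642642-180642941, minus strand) held none of the 3 motifs. None of the 9 promoters read held the T-box motif in this window, which says nothing of the genes not searched. The 4 promoters had 38, 30, 12 and 35 CG dinucleotides in that order, against a median of 7 over all promoters (middle range 3 to 20). Of all promoters 43.5% had 10 or more. The other promoters read had fewer than 3 of these 4: Ccnb3 and Rec8 had 18 each, Gm13016 had 9, Gm7967 had 2 and 2310043L19Rik had 1. A high CG content was thus not common to the genes with high ratios. A match is a match of letters only, and nothing was measured on the DNA of these cells.

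Ccnb3, the gene of a meiotic cyclin, had no UMI in control and 219 in 148 Setdb1_cKO cells, at least 120-fold higher. It lies on the X chromosome (6979652 to 7041619), where sex and genotype cannot be told apart. Long noncoding RNAs made up 7 of the 13 genes left among the 15 highest once Xist and Tsix were set aside. Gm49795 had 1 UMI in control and 469 in 223 Setdb1_cKO cells (127 CPM), and 2310043L19Rik had 0 and 208 (at least 114-fold higher). Gm48619 had 2 and 232 UMIs, Gm13016 had 2 and 79, and Gm7967 had 13 and 367 (ratio 46.6, 26.9 to 88.4). 3222401L13Rik, which lies on chromosome 18 within the protocadherin region, had 10.9 and 145 CPM, a ratio of 13.4 (10.4 to 17.6). Gm42851 had 4.60 and 35.3 CPM (7.66, 5.06 to 12). No function is given for these RNAs here. Ratios against 0 to 13 control UMIs varied with the gate, and that of Gm7967 was 110 without cycle-rich cells. With 1 Eomes UMI as the minimum the ratio of Ccnb3 was 482. Control then held Ccnb3 RNA, so this value is not taken against 3 counts and does not compare with the bound of 120. With cells thinned before the gate the ratio of Gm49795 was 85.7, of Gm48619 17.1, of Ccnb3 16.2 and of Gm13016 and Rnf17 5.71, taken against 3 counts, as a lower bound, where control had none.

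More of the genes found higher by an earlier analysis were detected per cell in Setdb1_cKO. For 11 such genes the number with a UMI was counted per cell after thinning to 2000 UMIs. In control 63.0% of cells had none of the 11, 32.3% had 1 and 4.11% had 2. In Setdb1_cKO 8.20% had none, 26.6% had 1, 29.9% had 2, 23.1% had 3 and 9.98% had 4. The median was 0 genes in control and 2 in Setdb1_cKO. Besides Mnd1 and noncoding RNAs the 11 include Atf7ip and Gm47283, which many control cells hold too. Gm47283, with 414 and 641 UMIs, is annotated on the Y chromosome, and sex and genotype cannot be told apart. Whether single genes occur together was not tested. The genes were picked on these libraries, and the counts are a description.

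**Figure D2:**
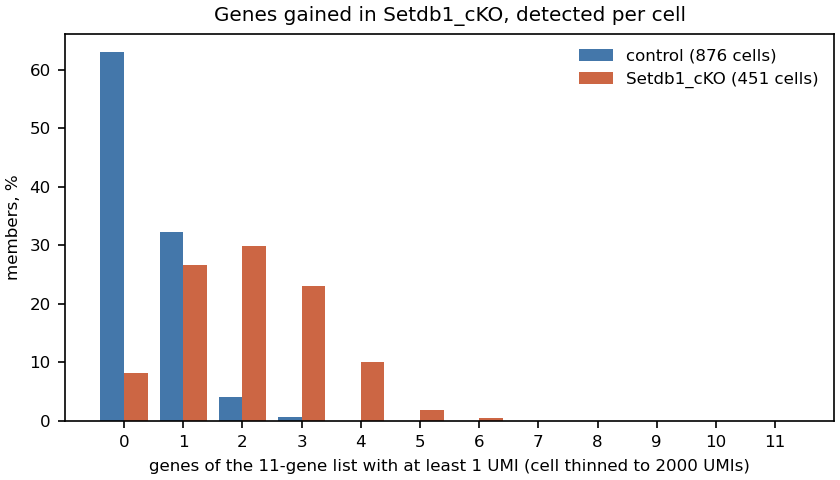
Share of progenitors (y axis, %) by the number of genes detected out of 11 that an earlier analysis found higher in Setdb1_cKO (x axis), each cell thinned to 2000 UMIs. Most control cells sit at 0 and most Setdb1_cKO cells at 1 to 3, with 8.20% of Setdb1_cKO cells at 0.

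Among partner genes of Setdb1, Atf7ip stood out. Its protein binds and stabilises SETDB1, and its level was 116 CPM in 459 of 878 control cells and 340 CPM in 398 of 452 Setdb1_cKO cells. The ratio was 2.93 (2.67 to 3.21). Tasor, the scaffold of the HUSH silencing complex, had 42.4 and 70.6 CPM (1.66, 1.39 to 1.98), and Dnmt3a, a DNA methyltransferase, had 25.6 and 38.5 CPM (1.5, 1.19 to 1.90). Setdb2 had 35 and 10 UMIs (0.472, 0.208 to 0.973). Of the 32 measured genes of this list 3 were at least 1.5-fold higher and 2 lower, Setdb1 among the latter, close to the 5.26% and 8.58% of all measured genes.

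The gamma protocadherins, cell surface proteins that give neurons an identity for recognition, were higher in sum in Setdb1_cKO. The 21 genes, variable and C-type isoforms together, summed to 110 CPM in control and 272 CPM in Setdb1_cKO, a ratio of 2.47 (2.23 to 2.72), and 14 of 18 measured members were at least 1.5-fold higher and 1 lower, against 5.26% and 8.58% of all measured genes. Several of the 14 reached 30 UMIs only with the Setdb1_cKO UMIs, such as Pcdhga3 with 13 and 53, so the count adds no support to the sum. Pcdhga12 had 12 and 41.5 CPM (3.46, 2.60 to 4.64), Pcdhga10 had 5.26 and 25.2 CPM (4.80, 3.18 to 7.41) and Pcdhgb4 had 4.93 and 23.1 CPM (4.68, 3.05 to 7.35). In the other direction Pcdhgc3, a C-type isoform, had 92 UMIs in control and 13 in Setdb1_cKO (0.233, 0.120 to 0.419), while Pcdhgc4 and Pcdhgc5 had ratios of 1.28 (0.791 to 2.04) and 1.16 (0.610 to 2.17). The gamma isoforms share their last exons, so the split of 3' UMIs between them is uncertain, and the sum is firmer than its parts. The 12 alpha genes summed to 42 and 53 UMIs (2.08, 1.36 to 3.2), with no member at 30 UMIs. The 22 beta genes summed to 80.9 and 95.8 CPM (1.18, 1.03 to 1.36), and of 14 measured members 6 were at least 1.5-fold higher and 5 lower, against the same shares of all measured genes. Over the alternatives the ratio of the beta sum ran from 0.678 to 1.25, so its direction was not stable. Pcdhb2 had 5 and 27 UMIs (8.91, 3.38 to 29.6) and passed the minimum only through Setdb1_cKO, and Pcdhb21 had 32 and 8 (0.413, 0.164 to 0.914).

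The proneural cascade, the transcription factors and effectors of the Eomes stage, was on balance slightly lower. Its 32 genes summed to 0.874 of the control level (0.866 to 0.882), with 2 of 31 measured members at least 1.5-fold higher, 4 lower and 25 between, close to the 5.26% and 8.58% of all measured genes. The median log2 ratio was -0.14, against -0.04 for all measured genes. The marker Tac2 had 798 and 518 CPM, a ratio of 0.650 (0.616 to 0.685). With the Setdb1_cKO cells weighted to the Eomes levels of control, a choice made after the data were seen, the Tac2 ratio was 0.61. Cells with at least 5 Tac2 UMIs made up 36.1% of control and 25.7% of Setdb1_cKO progenitors. The later bHLH factors were split: Nhlh1, of newborn neurons, had 89.4 and 148 CPM (1.66, 1.47 to 1.87) and Neurod4 had 74.6 and 96.9 CPM (1.30, 1.13 to 1.49), whereas Neurod1 had 997 and 868 CPM (0.871, 0.834 to 0.909). Insm1, a zinc finger factor that drives delamination of basal progenitors, had 55.2 and 86.3 CPM (1.56, 1.34 to 1.83).

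The cortical and hippocampal patterning factors of the list were lower. Emx1 had 262 and 169 CPM (0.644, 0.586 to 0.707), Emx2 had 174 and 98.8 CPM (0.567, 0.502 to 0.640) and Lhx2 had 828 and 623 CPM (0.752, 0.716 to 0.791). Emx2 has an antisense partner, Emx2os. Gadd45g, a stress and growth arrest gene that is a target of proneural factors, had 404 CPM in 702 control cells and 175 CPM in 283 Setdb1_cKO cells, and its ratio of 0.433 (0.396 to 0.472) was among the 15 lowest. After thinning 48.2% of control and 27.5% of Setdb1_cKO progenitors had a Gadd45g UMI, against 8.33% and 5.38% of microglia-like cells. The genes of highest level differed less. Zbtb20 had 5396 and 4514 CPM (0.837, 0.821 to 0.852), Sox4 a ratio of 0.850, Sox11 of 0.910, Igfbpl1 of 0.883 and Prox1, the granule lineage determinant, of 0.872 (0.822 to 0.924). Elavl2 (1.02, 0.961 to 1.07) and Mfap4 (1.06, 1.01 to 1.11) were close to equal.

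Notch pathway genes were split. Hes5, the effector by which Notch keeps progenitors undifferentiated, had 881 UMIs in 190 control cells and 1004 UMIs in 169 Setdb1_cKO cells, 145 and 272 CPM. The ratio was 1.88 (1.72 to 2.06), and after thinning 12.7% and 22.8% of progenitors had a Hes5 UMI, above the 6.82% and 3.23% of microglia-like cells. Mfng, which modifies Notch receptors, had 71.0 and 47.2 CPM (0.665, 0.554 to 0.795), and Hey1, another Notch effector, had 75 and 23 UMIs (0.506, 0.303 to 0.817). The receptor Notch1 had 94.0 and 93.6 CPM and the ligand Dll1 had 12.3 and 13.8 CPM, with intervals that included 1. The list of 26 genes summed to a ratio of 1.21 (1.16 to 1.27), which without Hes5 was 1.05 (0.992 to 1.10). Of 19 measured members 3 were at least 1.5-fold higher and 4 lower, where 5.26% and 8.58% of all measured genes were.

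Radial glia genes showed no common direction. Vim, an intermediate filament of glia, had 439 and 231 CPM (0.526, 0.487 to 0.569), and Ntrk2, the receptor of brain-derived neurotrophic factor, had 52.8 and 29.0 CPM (0.550, 0.438 to 0.687). Slc1a3, a glial glutamate transporter, had 315 and 212 CPM (0.672, 0.617 to 0.731). Against these, Hopx had 52.0 and 70.0 CPM (1.35, 1.14 to 1.59), and Sox9 had 77.4 and 81.7 CPM (1.05, 0.910 to 1.22). The 26 genes summed to 0.903 (0.885 to 0.921). Of 25 measured members 1, Hes5, was at least 1.5-fold higher and 2 were lower, close to the 5.26% and 8.58% of all measured genes.

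Neuronal maturation genes were higher in several cases, and for Stmn2, Nrgn and Syt4 the RNA in microglia-like cells was higher too. Of 26 measured neuroblast and granule neuron genes, 6 were at least 1.5-fold higher and none lower, against 5.26% and 8.58% of all measured genes. The sum of the list was 0.980 (0.971 to 0.990). Among the 6, Camk4 (11 and 23 UMIs) and Nrxn3 (29 and 59) passed the minimum only with the Setdb1_cKO UMIs. These genes therefore add no support to the count. Stmn2, a microtubule regulator of growing axons, had 394 and 668 CPM (1.70, 1.60 to 1.79) and Gap43, a growth cone protein, had 143 and 222 CPM (1.55, 1.41 to 1.71). Of the Gap43 UMIs 21.6% in control and 49.3% in Setdb1_cKO lay in 10 cells. Over the alternatives the Gap43 ratio ran from 1.17 to 1.70. Microglia-like cells, which should lack Stmn2, had 177 and 383 CPM (2.17, 1.91 to 2.47), a ratio as high as that of the progenitors. Nrgn, a calmodulin-binding protein of mature dendrites, had 36.3 and 151 CPM (4.15, 3.55 to 4.88), against 33.8 and 112 CPM in microglia-like cells. In Setdb1_cKO 76.1% of the Nrgn UMIs lay in 10 cells, and with each cell weighted equally the ratio was 2.45. Syt4, a vesicle protein outside that list, had 8.88 and 48.6 CPM (5.47, 4.02 to 7.56), and 83.8% of its Setdb1_cKO UMIs lay in 10 cells. With equal weights the Syt4 ratio was 3.17, and microglia-like cells had 7.2 and 46.4 CPM. Dcx (1.15, 1.09 to 1.20) and Calb2 (0.889, 0.838 to 0.943), genes of neuroblasts, differed by less than 1.5-fold. The part of RNA from other cells in these values was not tested beyond these measurements.

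Galr1, a receptor of the neuropeptide galanin, had 29 UMIs in 23 control cells and 124 UMIs in 69 Setdb1_cKO cells, 4.77 and 33.6 CPM. Its ratio was 7.06 (4.68 to 11), and 0.799% and 4.88% of thinned progenitors had a UMI, against 0% and 0.717% of microglia-like cells (exact upper bounds 1.39% and 2.57%). Crlf2, a cytokine receptor chain for thymic stromal lymphopoietin, had 6.74 and 30.7 CPM (4.55, 3.16 to 6.67). Both receptor genes were thus higher in the Setdb1_cKO progenitors, at low levels. For Crlf2 the direction was lost, at 0.476, when the gate was applied after thinning, where few UMIs were left. Socs2, an inhibitor of cytokine signalling, had 153 and 77.6 CPM (0.508, 0.443 to 0.580).

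Genes of migration and positioning were higher more often than lower: 14 of 50 measured members were at least 1.5-fold higher and 2 lower, against 5.26% and 8.58% of all measured genes, while their sum was 0.990 (0.968 to 1.01). Epha3 and Epha5 encode receptors of ephrin-A guidance cues. Epha3 had 27.5 and 46.4 CPM (1.69, 1.36 to 2.10). Epha5 had 31.4 and 92.8 CPM (2.96, 2.47 to 3.55), but 67.3% of its Setdb1_cKO UMIs lay in 10 cells and its ratio was 1.72 with equal weights and 1.31 in cells with at least 2000 UMIs and at most 5% of them mitochondrial. Unc5d, a netrin receptor, had 30.3 and 47.5 CPM (1.57, 1.27 to 1.94). Flrt2 had 19.6 and 32.8 CPM (1.68, 1.29 to 2.18) and Efnb3 had 17.4 and 27.1 CPM (1.56, 1.17 to 2.07). With cells thinned before the gate the ratio was 1.07 for Flrt2 and 0.952 for Efnb3. In the other direction Tenm4, a teneurin adhesion protein, had 254 and 165 CPM (0.651, 0.591 to 0.715).

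The genes with the lowest ratios included modulators of signalling. Sfrp1, a secreted antagonist of Wnt ligands, had 230 UMIs in 163 control cells and 44 in 37 Setdb1_cKO cells (37.8 and 11.9 CPM), a ratio of 0.316 (0.223 to 0.437). With at least 1 Eomes UMI per cell the Sfrp1 ratio was 0.533. Arl4d, a small GTPase of the ARF family, had 25 and 5.70 CPM (0.228, 0.137 to 0.361). Dok5, an adaptor of receptor tyrosine kinases, had 30.9 and 8.95 CPM (0.290, 0.194 to 0.421). Rlbp1, a retinaldehyde-binding protein, had 53.6 and 19.5 CPM (0.365, 0.278 to 0.472), and Mpped1 had 47.7 and 16.8 CPM (0.353, 0.264 to 0.466). Ccdc177 had 22.5 and 6.24 CPM (0.277, 0.170 to 0.433), which was 0.493 with at least 1 Eomes UMI per cell. Cavin2, a caveola protein, had 22.9 and 7.06 CPM (0.309, 0.195 to 0.472), and 73.1% of its 26 Setdb1_cKO UMIs lay in 10 cells.

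Wnt pathway genes, which sustain dentate progenitors, were at least 1.5-fold lower in 6 of 22 measured members and higher in none, against 8.58% and 5.26% of all measured genes. Tcf7l2, a transcription factor of the pathway, had 13.8 and 5.16 CPM (0.373, 0.214 to 0.620), and Rnf43 had 8.55 and 2.71 CPM (0.317, 0.144 to 0.631). The ligand Wnt8b had 38 and 5 UMIs (0.217, 0.0667 to 0.553). Some of the 6, such as Wnt8b and Rnf43 (52 and 10 UMIs), passed the minimum only with the control UMIs. The count of lower members therefore adds no support. With cells thinned to 2000 UMIs before the gate the Wnt8b ratio was 2.14, where few UMIs were left. A library without UMIs entered such ratios with 3 counts, so this value need not be a reversal. The list summed to 0.917 (0.879 to 0.957), which without Ctnnb1 was 0.965 (0.917 to 1.02). None of 14 measured BMP pathway genes was 1.5-fold apart: the inhibitor of differentiation Id2 had 483 and 427 CPM (0.885, 0.831 to 0.941), and Smad4 had 153 and 138 CPM (0.906, 0.812 to 1.01).

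Cell cycle genes were lower in part. Of 33 measured G2/M genes 10 were at least 1.5-fold lower and none higher (8.58% and 5.26% of all measured genes were), at a summed ratio of 0.984 (0.954 to 1.01), and of 47 S phase genes 1 was lower, Fen1 (23.5 and 15.5 CPM, 0.658, 0.475 to 0.900). Cenpf, a kinetochore protein, had 42.6 and 26.1 CPM (0.612, 0.479 to 0.776), and Cdca8, of the chromosomal passenger complex, had 24 and 12.5 CPM (0.520, 0.365 to 0.729), which was 0.790 without cycle-rich cells. The gate on Mki67 and Top2a used the same readout, and some of the 10, such as Cdk1 (33 and 9 UMIs), passed the minimum only with the control UMIs. The count therefore adds no support. In cells with 0, 1 to 3 and at least 4 Neurod1 UMIs the G2/M sum had ratios of 1.15, 0.714 and 1.09. Cdkn1c, the imprinted inhibitor p57, had 18.7 and 41.8 CPM (2.23, 1.74 to 2.87), and Cdkn1a, the inhibitor p21, had 31 and 7 UMIs (0.373, 0.139 to 0.863). With at least 1 Eomes UMI the ratio of Cdkn1c was 3.58, and without called doublets that of Cdkn1a was 0.183.

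Imprinted genes differed one by one. Meg3, the maternally expressed noncoding RNA of the Dlk1-Meg3 locus, had 135 and 408 CPM (3.02, 2.77 to 3.29), and Rian, from the same locus, had 8.22 and 35.5 CPM (4.32, 3.10 to 6.12). Rian had a ratio of 1.63 with cells thinned before the gate. Of the Meg3 UMIs 67.2% in control and 59.7% in Setdb1_cKO lay in 10 cells, and the ratio ran from 1.90 under that depth and mitochondrial limit to 4.61 with at least 3 Eomes UMIs. Shares of thinned progenitors with a Meg3 UMI, 9.13% and 22.6%, were below those of endothelial-like cells, 39.4% and 48.1%. Zdbf2, a paternally expressed gene, had 39.9 and 21.4 CPM (0.537, 0.411 to 0.694). The 45 genes summed to 1.16 (1.14 to 1.18), with 4 of 29 measured members at least 1.5-fold higher and 2 lower, against 5.26% and 8.58% of all measured genes.

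Immune and stress genes showed no common direction. Interferon and sensor genes summed to 0.669 (0.607 to 0.738), a value set by Ifitm2, which had 135 and 59.2 CPM (0.437, 0.374 to 0.508). Without Ifitm2 the sum was 0.989 (0.865 to 1.13). MHC class I and immunoproteasome genes summed to 0.769 (0.712 to 0.831), and over the alternatives this sum ran from 0.714 to 1.16. Atf4, the central factor of the integrated stress response, had 106 and 57.8 CPM (0.546, 0.465 to 0.638), and its target Phgdh, of serine synthesis, had 75.5 and 47.5 CPM (0.629, 0.526 to 0.751). The immediate early genes Ier2 and Fos had ratios of 0.616 (0.540 to 0.702) and 0.624 (0.530 to 0.733). Among p53 targets Gadd45a (1.79, 1.31 to 2.46) and Plk2 (1.62, 1.20 to 2.17) were higher and Cdkn1a was lower, with 13 of 16 measured members between. A block of 88 high-numbered zinc finger genes summed to 1.0 (0.959 to 1.05), with 5 of 52 measured members higher and 4 lower, close to the 5.26% and 8.58% of all measured genes. Examples are Zfp992 (8 and 40 UMIs, 8.25, 3.81 to 20.4), which reached 30 UMIs only through Setdb1_cKO, and Zfp811 (36.3 and 18.7 CPM, 0.515, 0.387 to 0.678). When each cell was thinned to 2000 UMIs before the gate, which left 397 control and 139 Setdb1_cKO cells, the ratio lay on the other side of 1 for Hey1, Setdb2, Zdbf2, Plk2, Wnt8b, Efnb3 and Crlf2 among the genes named here. A library without UMIs was given 3 counts there, so not each of these need be a reversal. Housekeeping lists lay close to 1: cytosolic ribosomal protein genes summed to 1.07 (1.06 to 1.07), nuclear oxidative phosphorylation genes to 1.01 (1.0 to 1.02) and mitochondrial genes to 1.12 (1.11 to 1.13).

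**Figure D3:**
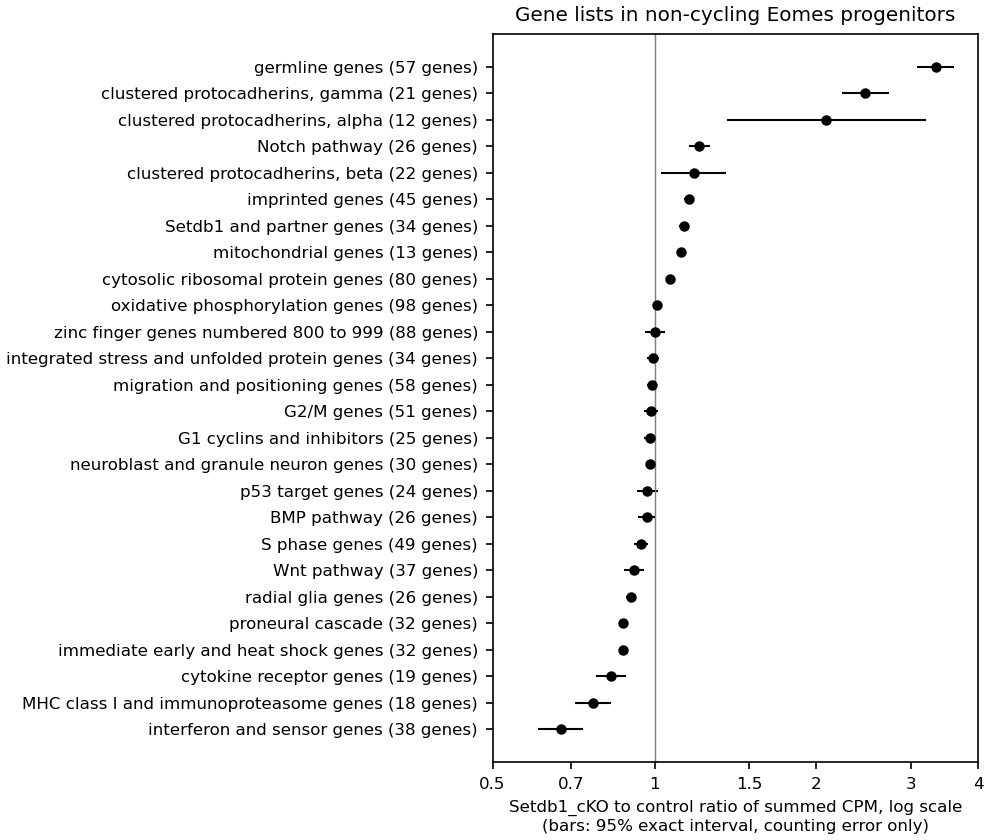
Setdb1_cKO to control ratio of the summed CPM of 26 gene lists in the progenitors (x axis, log scale), with the number of genes in the data. The lists of other cell types' markers, haemoglobin, sex-linked genes and genes picked by an earlier analysis are not drawn. Points are ratios and bars 95% exact intervals for counting error. Germline genes (3.33) and gamma protocadherins (2.47) lie far to the right, most lists drawn lie near 1, and interferon genes (0.669) lie lowest among those drawn.

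The progenitors were then ordered by Neurod1, a factor of the late Eomes stage that the gate did not use. The make-up of the libraries by this measure was alike: 15%, 16.2% and 68.8% of control and 14.6%, 15.9% and 69.5% of Setdb1_cKO progenitors held 0, 1 to 3 and at least 4 Neurod1 UMIs. The interval of the lowest class was 12.7 to 17.6% in control and 11.5 to 18.2% in Setdb1_cKO. These classes held 132, 142 and 604 control cells and 66, 72 and 314 Setdb1_cKO cells. With the Setdb1_cKO cells weighted to the control shares of these classes, the Tac2 ratio was 0.65 and the Hes5 ratio 1.91.

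Early and late genes ran along the classes in both libraries. Hes5 stood at 496, 212 and 52.9 CPM over the classes in control and at 1098, 388 and 99.6 CPM in Setdb1_cKO, so Setdb1_cKO was higher in each class, with ratios of 2.21, 1.83 and 1.89. Vim was lower in each class of Setdb1_cKO, with ratios of 0.55, 0.43 and 0.59, and Gadd45g likewise with 0.56, 0.42 and 0.41. Emx2 had ratios of 0.59, 0.61 and 0.55. These differences were thus present at every Neurod1 level. Tac2 was 95.2, 777 and 957 CPM in control and 41.3, 343 and 640 CPM in Setdb1_cKO, with ratios of 0.43, 0.44 and 0.67. Nhlh1 was 22.5, 57.2 and 111 CPM in control and 47.5, 126 and 171 CPM in Setdb1_cKO.

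For Insm1 and Neurod4 the ratio was highest in the cells with most Neurod1. Neurod4 was 82.4, 155 and 55.7 CPM in control and 78.4, 124 and 94.8 CPM in Setdb1_cKO, and its ratio was 0.95 (0.63 to 1.42), 0.80 (0.59 to 1.08) and 1.70 (1.42 to 2.04). In both libraries the level of Neurod4 was highest at 1 to 3 Neurod1 UMIs. Insm1 was 98.4, 95.7 and 37.0 CPM in control and 140, 117 and 70.4 CPM in Setdb1_cKO, with ratios of 1.43, 1.22 and 1.90. Mnd1 had ratios of 28.7, 42.4 and 43.7, and germline genes as a list 2.58, 2.84 and 3.88. Whether ratios differ between the classes was not tested.

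**Figure D4:**
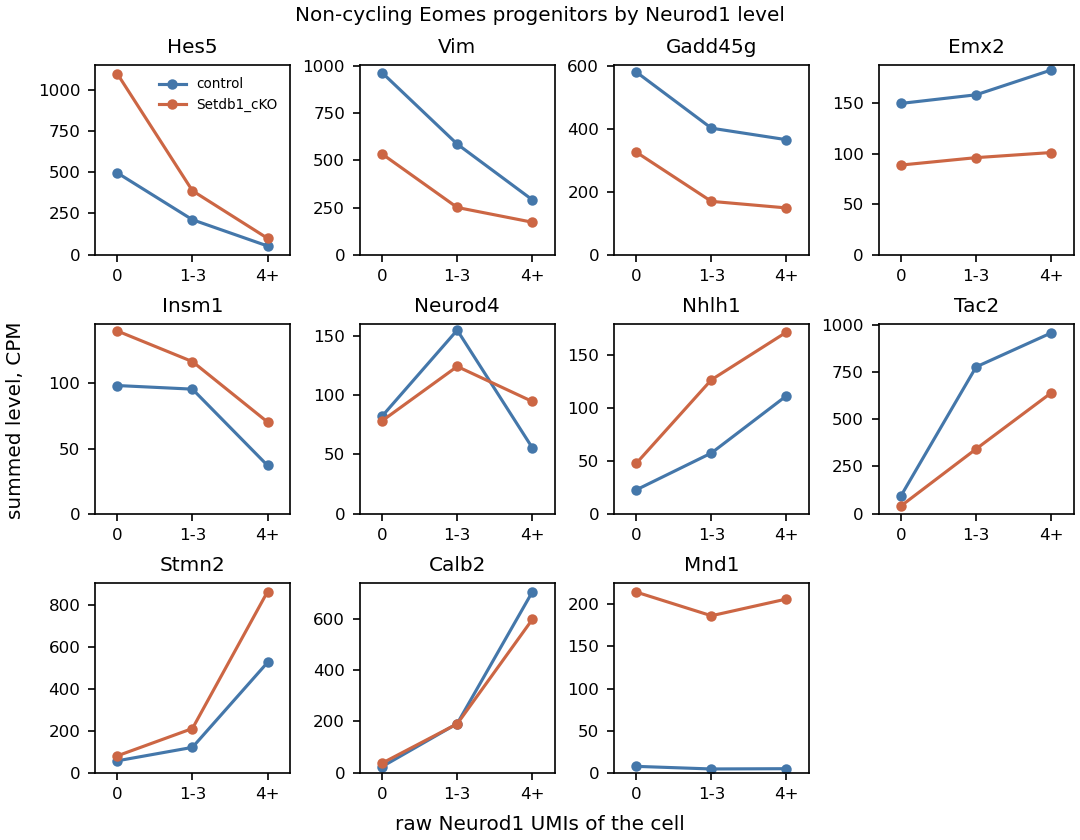
Summed CPM (y axes, each with its own scale from 0) of 11 genes in progenitors with 0, 1 to 3 and at least 4 Neurod1 UMIs (x axes), for control (blue) and Setdb1_cKO (orange). Hes5 is highest in the cells without Neurod1 and higher in Setdb1_cKO in each class, Tac2 is highest in the cells with most Neurod1 and lower in Setdb1_cKO in each class, and Mnd1 lies between 187 and 215 CPM in the Setdb1_cKO classes.

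The same genes were set beside 3 groups of cells gated alike: 963 cycling Eomes cells, 2851 glia-like cells (with Hopx and Sox9 and without Eomes or Neurod1) and 5285 Calb2 neuroblast-like cells. Mnd1 had ratios of 18.8 (14.4 to 25), 31.6 (24.0 to 42.3) and 29.0 (24.3 to 34.8) in these, beside 40.1 in the progenitors. Atf7ip had 2.91, 2.43 and 2.45, beside 2.93. The germline list summed to 2.44 (2.31 to 2.58), 2.88 (2.74 to 3.04) and 3.64 (3.48 to 3.81), beside 3.33. In microglia-like and endothelial-like cells that list summed to 1.23 (1.05 to 1.46) and 1.5 (1.24 to 1.81). The ratio of the germline list was thus above 2 in each of the 4 neural groups of cells.

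Other genes had unlike ratios in these groups. Hes5 was 387 and 475 CPM in cycling Eomes cells (1.23, 1.15 to 1.30), 1109 and 968 CPM in glia-like cells (0.873, 0.849 to 0.897) and 48.0 and 36.7 CPM in neuroblast-like cells (0.763, 0.692 to 0.842). The intervals of Hes5 in these 3 groups did not overlap with that of the progenitors, which speaks of counting error and is no test between genotypes. Vim had ratios of 0.544 (0.508 to 0.582) in cycling Eomes cells, 0.927 in glia-like and 0.850 in neuroblast-like cells. Gadd45g had 0.502, 0.914 and 0.274, so its ratio was lowest in the neuroblast-like cells. Tac2 had 0.464 (0.426 to 0.506) in cycling Eomes cells and 0.517 in neuroblast-like cells, where its control level was 95.2 CPM. Nhlh1 had 1.40 (1.11 to 1.75) and 1.46 (1.31 to 1.63), and Emx2 0.574, 0.683 and 0.548. Neurod4 was equal in cycling Eomes cells, with 94.8 and 94.6 CPM. Sfrp1 had 0.496, 0.599 and 0.834, beside 0.316 in the progenitors. Galr1 had 7.32 (3.28 to 18.5) in cycling Eomes cells and 2.89 (2.35 to 3.56) in neuroblast-like cells.

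**Figure D5:**
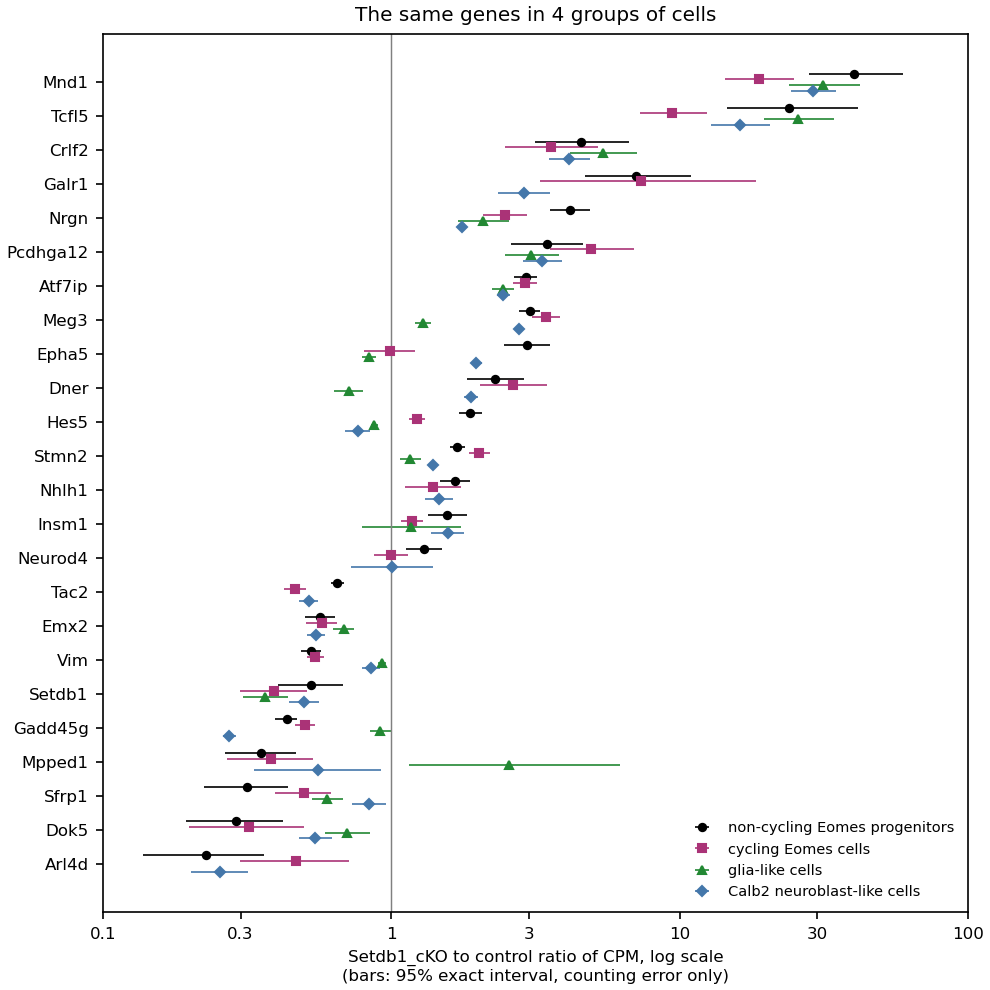
Setdb1_cKO to control ratio of CPM (x axis, log scale) for 24 genes in the non-cycling Eomes progenitors and in 3 other gated groups of cells, with 95% exact intervals for counting error. Points are left out where a group had no control UMI or under 30 UMIs. Mnd1, Tcfl5 and Atf7ip lie right of 1 in all 4 groups, Hes5 lies right of 1 in both Eomes groups and left of 1 in the other two, and Setdb1 lies left of 1 in all 4.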

How the data were processed

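Single-cell data from 2 libraries were used, 1 per genotype. The authors deposited raw UMI counts per gene and barcode, and per the submitters' processing notes the tools were Cell Ranger 7.1.0 and Seurat with the build mm10. The control library held 14397 barcodes and 82393428 UMIs and the Setdb1_cKO library 12060 barcodes and 87845965 UMIs. Barcodes under 1000 UMIs or 500 genes or over 10% mitochondrial UMIs were left out, and the gate used raw UMIs. Doublets were scored with Scrublet in scanpy 1.11.5, which marked 41 control and 36 Setdb1_cKO progenitors, and they were kept in the reported values.

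UMIs of the progenitors were summed per library and divided by the library's sum over the progenitors (CPM). The Setdb1_cKO to control ratio has an exact conditional Poisson 95% interval, and shares of cells have exact Clopper-Pearson intervals, both from scipy 1.17.1 and both for counting error only. The gene-wise computation was tested on simulated data. A gene counted as measured from 30 UMIs in the 2 libraries together, log2 ratios had 0.5 UMI added, and the 5 gate genes were left out. Against 0 UMIs a ratio was taken as at least the value with 3 counts over that library's progenitors. For shares of cells with a UMI, each cell was thinned to 2000 UMIs, which left out 2 control cells and 1 Setdb1_cKO cell.

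Named genes were the 15 highest and 15 lowest by the interval bound nearest to 1 among genes of at least 20 CPM in the higher library (mitochondrial, haemoglobin, ribosomal and sex-linked genes then set aside), Setdb1, the markers, the 10 proneural cascade genes of highest level, and up to 6 genes per other list at least 1.5-fold apart. Genes named outside this rule (Notch1, Dll1, Slc1a3, Hopx, Sox9, Dcx, Calb2, Psmc3ip, Syce2, Tdrkh, Hspa2, Brdt, Tuba3a, Pcdhgc3, Pcdhgc4 and Pcdhgc5) were chosen after their values were seen. The cells, the gene lists and the rules were chosen with earlier results of these data known. Of 32285 gene identifiers, 32158 matched GENCODE vM21, the source of gene positions on GRCm38, and promoters came from RefSeq for GRCm38.p6. Alternatives were other Eomes thresholds, thinning before the gate, other UMI minimums, scalings and cell weights, limits of 2000 UMIs and 5% mitochondrial UMIs, and leaving out doublets and other cells.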

Additional observations from a re-analysis of the deposited data

Results flagged for a closer look

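In 7 cases a gene or list differed between the libraries in opposite directions in the non-cycling Eomes progenitors and in another group of cells, each with an interval that excluded 1. The difference between the groups of cells was not tested in any of them, since each genotype had 1 library. Klf2, an immediate early gene, had a Setdb1_cKO to control ratio of 0.138 in the progenitors and 2.84 (1.99 to 4.08) in cycling Eomes cells, and 94.4% of its 36 control UMIs in the progenitors lay in 10 cells. Its ratio in the progenitors was 0.588 without called doublets, 0.490 without cells holding markers of other types, 0.412 with at least 1 Eomes UMI and 0.0572 with at least 3. Mpped1 had 0.353 in the progenitors and 2.56 (1.16 to 6.23) in glia-like cells. Pcdhb17 had 2.03 in the progenitors and 0.564 (0.346 to 0.906) in glia-like cells. Cavin2 had 0.309 in the progenitors and 1.85 (1.20 to 2.89) in Calb2 neuroblast-like cells.

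The other cases were sums of markers of other cell types. Fibroblast markers had 0.437 in the progenitors and 2.12 (1.86 to 2.41) in cycling Eomes cells. Cajal-Retzius markers had 1.51 in the progenitors and 0.494 (0.441 to 0.552) in glia-like cells. Haemoglobin genes had 0.0349 in the progenitors and 1.68 (1.62 to 1.73) in Calb2 neuroblast-like cells. In the progenitors the haemoglobin ratio was 0.599 without cells holding markers of other types and 0.436 with at least 3 Eomes UMIs.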

How the results depend on the processing

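No paired analysis was possible because each group has 1 library. Of 113 named genes and lists at least 1.5-fold apart, all kept their direction with at least 3 Eomes UMIs per cell, with at least 2000 UMIs and at most 5% of them mitochondrial, with both other scalings, with equal, Eomes and Neurod1 weights and without progenitors rich in cycle genes. The Eomes weights and the removal of progenitors with cycle genes or with markers of other cell types were chosen after seeing the data. With at least 1 Eomes UMI 110 kept it, without called doublets 112, and without progenitors holding markers of other types 110. Thinning each cell to 2000 UMIs before the gate left 397 control and 139 Setdb1_cKO cells, and 87 of 101 kept their direction, while 12 had no value. The planned gate of at most 3 UMIs over the cycle lists left 8 and 3 cells and was not run. Depth limits what thinned cells can show, and the cause of the other changes was not tested.

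After that thinning the ratio was Hey1 1.71, Cdk1 2.14, Setdb2 1.14, Zdbf2 1.04, Nap1l5 0.476, Plk2 0.879, Wnt8b 2.14, Efnb3 0.952, Crlf2 0.476, Pcdhga5 0.476, Zfp976 0.857, summed GABAergic markers 0.816, endothelial markers 3.43 and fibroblast markers 1.86, each on the other side of 1 from the reported ratio. A library without UMIs was given 3 counts, so not each of these need be a reversal. With at least 1 Eomes UMI Igf2 (2.81), Ifitm3 (1.13) and fibroblast markers (3.76) reversed. Without progenitors holding other markers Igf2 (1.63), Ifitm3 (1.87) and microglia markers (1.63) did, and without called doublets microglia markers (1.46) did.

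Genes at least 2-fold higher numbered 65 after thinning, 80 with a minimum of 100 UMIs and 512 with 10, and lower ones 86 and 633 with those minimums. The Setdb1 ratio was 0.734 after thinning. The proneural list was 0.882 with at least 3 Eomes UMIs, 0.894 after thinning, 0.893 scaled to the total without mitochondrial, ribosomal, haemoglobin and sex-linked genes, 0.899 scaled to the median ratio of 0.972, 0.884 with equal weights and 0.858 without progenitors rich in cycle genes. The neuroblast and granule list was 1.0 with that total, 1.01 with the median, 0.967 with equal weights and with Eomes weights, and 0.959 without cycle-rich progenitors. The germline list was 2.94 after thinning and 3.84 without cycle-rich progenitors, and gamma protocadherins were 2.06 after thinning.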

Other observations

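Adk, the gene of adenosine kinase, followed the 15 highest genes in rank and was picked here after its values were seen. It had 281 UMIs in the control progenitors and 761 in the Setdb1_cKO progenitors, 46.2 and 207 CPM, a ratio of 4.47. In endothelial-like and microglia-like cells its ratio was 1.82 and 2.21.

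Tac2 was unevenly spread over the progenitors of both libraries: the tenth of the cells with most Tac2 held 44.5% of its UMIs in control and 59.6% in Setdb1_cKO. Cells with a Tac2 UMI had a median of 8 UMIs in control and 6 in Setdb1_cKO, and the highest cells held 51 and 55. Control progenitors with 0 Neurod1 UMIs had 95.2 CPM of Tac2, and those with at least 4 had 957 CPM.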
